A study of Bos taurus with 42 samples.

Results

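HSPA1A, HSF1 and HSF2 are genes of the heat shock response, and they are described here over 42 RNA-Seq libraries of bovine fetuses at day 50 of gestation. They are 3 of the 22,664 genes in the table of read counts. They were found by the Ensembl identifiers that the study pairs with their symbols, ENSBTAG00000025441 for HSPA1A, ENSBTAG00000020751 for HSF1 and ENSBTAG00000012946 for HSF2. HSPA1A was chosen because its values in the cerebrum were lower in restricted fetuses, so its diet difference in that tissue is given as a description with no test. HSF1 and HSF2 encode transcription factors of the same response.

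Of each of 14 fetuses, 1 library was made from the cerebrum, 1 from the liver and 1 from muscle of the hind limb. All dams were Angus-cross heifers inseminated from a common sire. From breeding on, control dams (CON, n = 7) were fed 100% of their requirement for a set gain in body weight, and restricted dams (RES, n = 7) were given 60% of the CON intake. The CON group held 6 males and 1 female, and the RES group 5 males and 2 females. The fetuses are named here by diet and number (CON 2, RES 1), and the same number in 3 tissues is the same animal. Cerebrum libraries held 4,145,093 to 7,576,159 counts, liver libraries 6,658,218 to 12,741,299 and muscle libraries 5,384,018 to 7,592,149. The lane and the RNA integrity of each library are not given in the labels, so no value could be computed within batches.

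The heat shock response protects cells from misfolded proteins. HSF1 is its main activator. It is held inactive by chaperones in unstressed cells, and under stress it forms trimers, enters the nucleus and binds heat shock elements in the promoters of chaperone genes. HSF2 is a related factor that can form mixed trimers with HSF1 and is known for its part in the development of the brain and of germ cells. HSPA1A encodes the stress-inducible cytosolic form of HSP70, a chaperone that uses ATP to refold client proteins with the help of HSP40 (DNAJ) partners and nucleotide exchange factors. It is among the genes most strongly induced by HSF1. Activation of HSF1 takes place mostly on the protein, so the RNA level of HSF1 is not a measure of its activity.

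Levels are given as normalised CPM, that is, counts relative to the library total after correction with the TMM factor (trimmed mean of M values) computed over all 42 libraries. The values hold no correction for gene length, and so the tests compare the level of 1 gene between libraries, not with that of another gene. Where a marker or list member is named for the highest level, the order is that of CPM without such a correction. Cattle carry near-identical copies of HSPA1A. In the RefSeq annotation HSPA1B is a synonym of HSPA1A, and HSPA1L lies beside it. The counter used only reads that map to 1 place, so reads shared between copies may have been lost, and the values of HSPA1A are uncertain in that respect. The libraries were strand-specific, but the strand column that was kept is not stated, so reads from an overlapping antisense gene cannot be told apart.

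Marker genes were checked in each tissue before the levels were compared. All 8 neural markers with an identifier were detected in every cerebrum library, all 7 hepatocyte markers in every liver library and all 8 skeletal muscle markers in every muscle library. The cerebrum library of RES 1 stood apart from the other 13. Its summed hepatocyte markers reached 6110 normalised CPM, against 1180 in the next library and a median of 164, with TTR as the most abundant of them on average and APOB at 0 counts in the median cerebrum library. TTR alone averaged 687 normalised CPM over the cerebrum libraries, above that median sum. The cells that gave this signal in the cerebrum were not tested. The muscle markers of RES 1 summed to 234 normalised CPM against 16.3 in the next library, its red cell markers to 260 against 86.3, and its neural markers to 2010, the lowest of the cerebrum libraries. The cerebrum library of CON 23 had the highest neural sum, 8850 normalised CPM against 4470 in the next, and the lowest TMM factor of that tissue, 0.746. In the liver, 4 libraries had a TMM factor below 0.5, namely RES 1 with 0.189, CON 2 with 0.418, RES 6 with 0.433 and RES 33 with 0.466. The 12 mitochondrial genes with a symbol took 67.7%, 44.9%, 35.6% and 30.5% of the counts of these libraries, and at most 16.4% in the other 10 liver libraries. In muscle, the neural markers of CON 73 summed to 1500 normalised CPM against 344 in RES 1 and a median of 29.8, with STMN2 as the most abundant and PAX6 at 0 counts in the median muscle library. Values without these libraries are given where they bear on a result, while the fits between tissues include them.

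The first question was where the 3 genes were expressed. HSPA1A was far higher in the liver than in the other tissues, by 50.8-fold over the cerebrum and 40.3-fold over muscle. HSF1 was also higher in the liver on the normalised scale, while HSF2 had the opposite order, with its highest level in the cerebrum, a lower level in muscle and the lowest in the liver. In whole tissues, a difference in the share of a cell type and a difference in RNA per cell cannot be told apart, and this holds for each comparison below.

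HSPA1A ranged over the 14 liver libraries from 287 normalised CPM in RES 1 to 4953 in CON 54. In the cerebrum it ranged from 9.26 in CON 23 and RES 6 to 178 in CON 73, and in muscle from 29.3 in CON 23 to 133 in CON 73. Every liver library was above every library of the other tissues on this scale. On library totals the liver library of RES 1 held 54.4 CPM, below 6 cerebrum and 10 muscle libraries, and the other 13 liver libraries, from 301 to 3421 CPM, were still above all of them. It exceeded the others by a log2 difference of 5.67 ± 0.40 (SE, 14 libraries a tissue) for the cerebrum (edgeR adjusted p = 4.75e-17) and 5.33 ± 0.39 for muscle (edgeR adjusted p = 2.2e-16). Muscle and cerebrum are neighbours in this order, and they did not differ beyond their spread (log2 difference 0.33 ± 0.33, 95% interval -0.31 to 0.98, edgeR adjusted p = 0.372). With the animal as a block the same difference was 0.48 ± 0.24, with an edgeR adjusted p of 0.0695.

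HSF1 ranged from 58.6 to 148 normalised CPM in the liver, from 35.4 to 56.0 in muscle and from 20.5 to 48.1 in the cerebrum. No liver library overlapped with those of the other tissues, and muscle and cerebrum overlapped. HSF1 had a log2 difference of 1.42 ± 0.14 between liver and cerebrum (edgeR adjusted p = 2.95e-12), 1.04 ± 0.14 between liver and muscle (edgeR adjusted p = 7.94e-09) and 0.38 ± 0.14 between muscle and cerebrum (edgeR adjusted p = 0.015). The 4 liver libraries with a low TMM factor held the 4 highest values of HSF1, between 113 and 148 normalised CPM. The other 10 liver libraries, between 58.6 and 98.5, were still above all cerebrum and muscle libraries on this scale.

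HSF2 ranged from 98.2 to 169 normalised CPM in the cerebrum, from 80.4 to 111 in muscle and from 10.4 to 27.4 in the liver. Its liver values lay below all others, while cerebrum and muscle overlapped. The liver was 6.15-fold below the cerebrum (log2 difference -2.62 ± 0.10, edgeR adjusted p = 1.17e-25) and 4.56-fold below muscle (-2.19 ± 0.10, edgeR adjusted p = 5.24e-23). Muscle was 1.35-fold below the cerebrum (-0.43 ± 0.10, edgeR adjusted p = 0.000123).

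**Figure D1:**
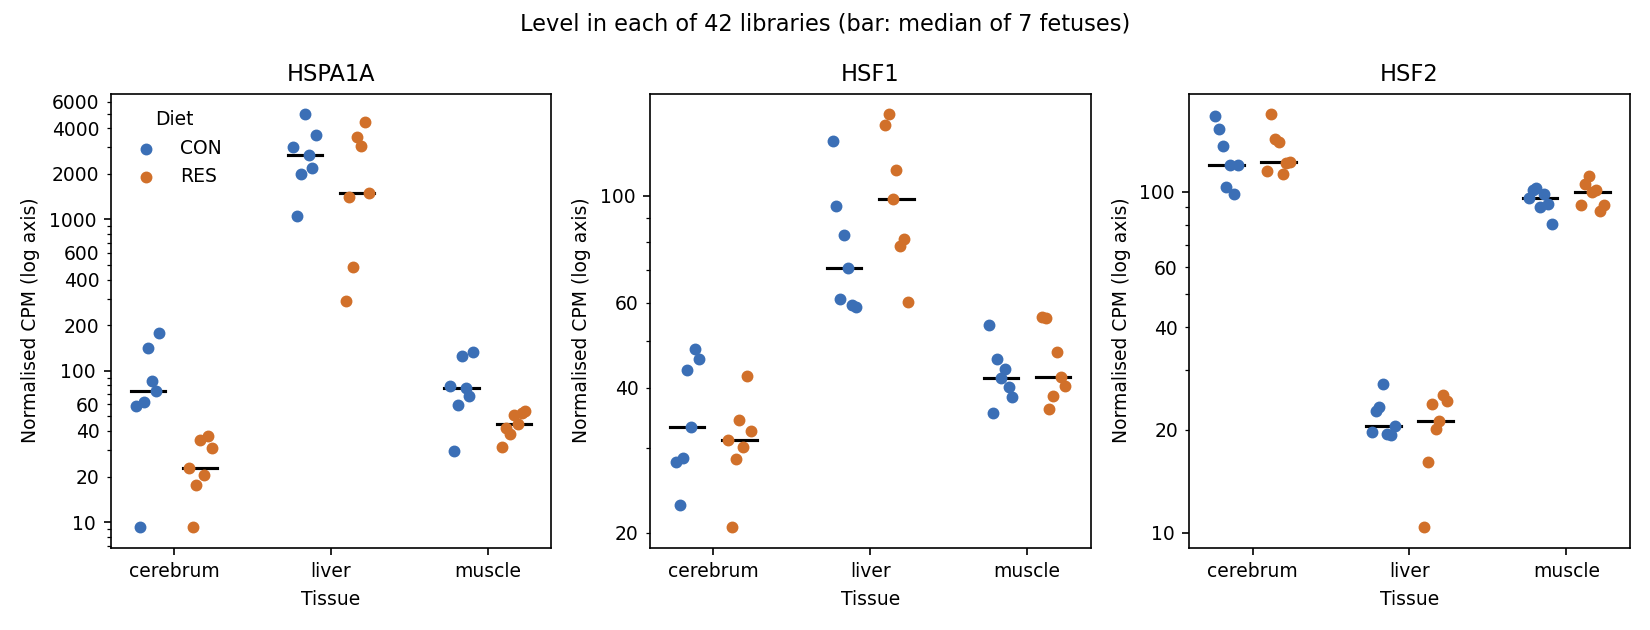
Level of HSPA1A, HSF1 and HSF2 in each of the 42 libraries, in normalised CPM on a log axis, by tissue and diet, with a point for each fetus and a bar at the median of 7 fetuses. HSPA1A and HSF1 are highest in the liver and HSF2 is lowest there, and the CON and RES points of HSPA1A in the cerebrum separate except for CON 23.

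These are differences against a background in which most genes differed between tissues. Of the 15,972 genes tested, 38.5% were higher and 45.2% lower in liver than in cerebrum at an adjusted p under 0.05, 32.2% were higher and 35.9% lower in muscle than in cerebrum, and 36.6% were higher and 45.5% lower in liver than in muscle. The scaling of the liver libraries moved these shares. With library totals alone as scaling, 19.9% were higher and 65.8% lower in liver than in cerebrum, and 16.4% were higher and 69.1% lower in liver than in muscle. The median of all genes shifted from -0.17 to -1.20 between liver and cerebrum and from -0.21 to -1.23 between liver and muscle, on the log2 scale.

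HSPA1A kept its direction under library totals, with a log2 difference of 4.64 ± 0.42 against the cerebrum and 4.34 ± 0.42 against muscle. HSF2 also did, with -3.62 ± 0.19 and -3.18 ± 0.19. The sign of HSF1 depended on the scaling, with 0.26 ± 0.14 against the cerebrum (edgeR adjusted p = 0.0904) and -0.10 ± 0.14 against muscle (edgeR adjusted p = 0.508). With totals free of mitochondrial genes, HSF1 was 0.54 ± 0.14 above the cerebrum (edgeR adjusted p = 0.000571) and 0.22 ± 0.14 above muscle (edgeR adjusted p = 0.145). A change of scaling moves all genes of a library alike, so differences relative to the median of all genes depend little on it by construction. With TMM, HSPA1A was 5.84 above that median for liver against cerebrum and 5.54 above it for liver against muscle, HSF1 was 1.59 and 1.25 above it, and HSF2 was at -2.45 and -1.98.

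**Figure D2:**
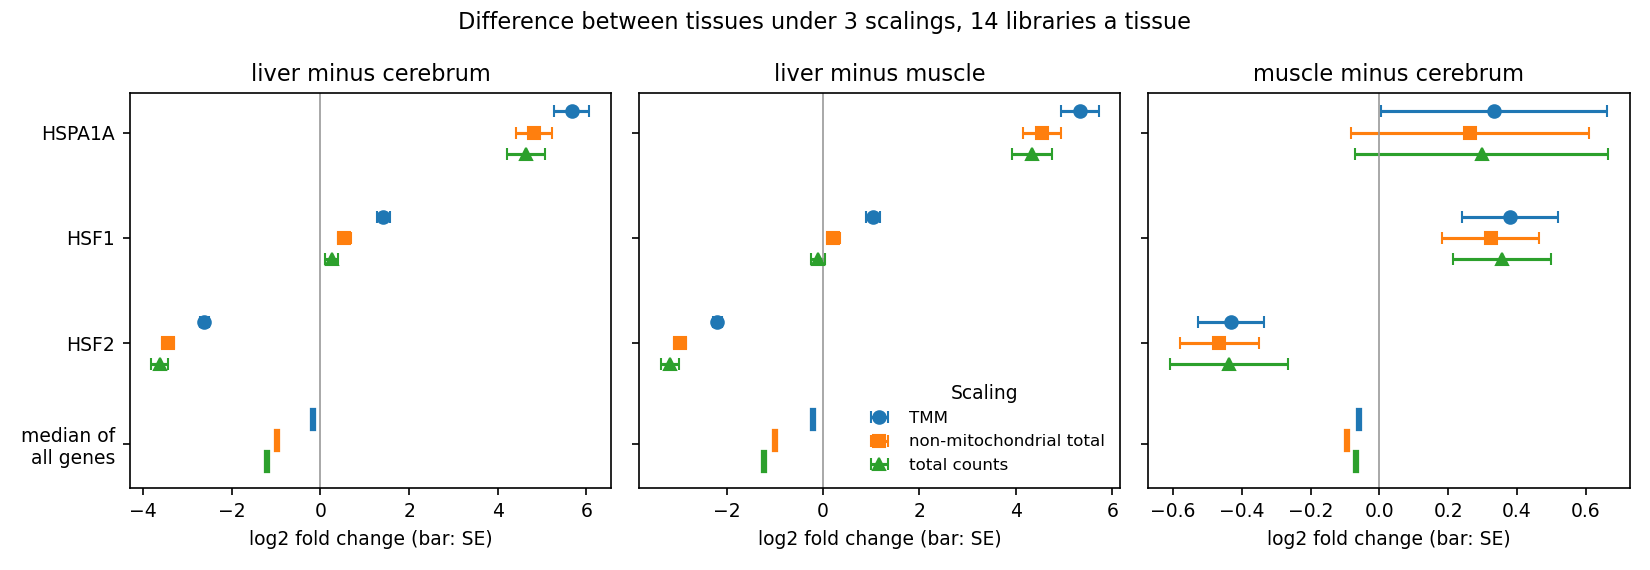
Differences between tissues (log2 fold change with SE bars, 14 libraries a tissue) for the 3 genes under 3 scalings, with the median of all genes in the lowest row. HSPA1A and HSF2 stay on their side of 0 in the comparisons with liver, while HSF1 moves to 0.26 and -0.10 with library totals as the median of all genes moves to -1.20 and -1.23.

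The study asked how maternal intake in early pregnancy altered expression in the fetus. HSPA1A had the lower values in RES that led to its choice. In the cerebrum its level was 87.0 ± 56.1 normalised CPM in CON and 24.7 ± 10.04 in RES (mean ± SD, n = 7 each). In CON the values were 9.26 in CON 23, 58.9 in CON 2, 62.5 in CON 46, 73.8 in CON 69, 85.5 in CON 68, 141 in CON 54 and 178 in CON 73. In RES they were 9.26 in RES 6, 17.6 in RES 25, 20.6 in RES 52, 22.7 in RES 1, 30.7 in RES 70, 34.8 in RES 33 and 37.2 in RES 55. Thus 6 of the 7 CON fetuses were above all RES fetuses, and CON 23 was level with the lowest RES fetus. The values rest on 43 to 1490 counts per library. The fitted log2 difference was -1.93 ± 0.47 (SE), a level 3.81-fold lower in RES. Just inside and just outside the boundary between the groups lay CON 2 with 58.9 and RES 55 with 37.2 normalised CPM. The difference was -2.10 without CON 23, -1.94 without RES 1 and between -2.13 and -1.63 when each fetus was left out in turn, and it was -1.97 with library totals as scaling.

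In muscle HSPA1A showed the same arrangement of fetuses at a smaller size. Its level was 81.5 ± 36.4 normalised CPM in CON and 44.7 ± 8.35 in RES (mean ± SD, n = 7 each). In CON the lowest value was 29.3 in CON 23, the median 76.7 and the highest 133 in CON 73, and in RES the lowest was 31.3 in RES 1, the median 44.2 and the highest 54 in RES 70. Again 6 of the 7 CON fetuses were above all RES fetuses, and CON 23 was below them all. The log2 difference was -0.92 ± 0.27 (SE), or 1.90-fold lower in RES, with an unadjusted p = 0.00397 and an adjusted p = 0.457 over all genes in edgeR, and so it did not pass the adjustment. An unadjusted p under 0.05 was found for 9.91% of the 14,947 genes tested in muscle, 4.91% with a lower level in RES, and 0 genes (0.0%) passed the adjustment with edgeR and 13 with DESeq2. The DESeq2 adjusted p of HSPA1A was 0.0898. The earlier study of these fetuses had already listed HSPA1A for this tissue, and so the value is not independent evidence. HSPA1A was also chosen by its cerebrum values in these same fetuses. Pearson's r between its cerebrum and muscle values was 0.926, and 0.886 centred within diet. The p-values of HSPA1A in muscle, here and in the tests below that are not centred within diet, are therefore not independent of that choice.

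An exact two-sided permutation test of the mean log2 CPM, over all splits of the 14 fetuses into 7 and 7, gave a difference of -0.76 and p = 0.0268 for HSPA1A in muscle. It was 1 of 8 such tests on the 3 genes and did not pass the adjustment over them (adjusted exact permutation p = 0.214). Without CON 23 the difference was -0.98, and no p is given since the other fetuses are fully apart by then. Without RES 1 it was -0.67 (exact permutation p = 0.0577). The muscle library of CON 73, with the highest HSPA1A, was the one with raised neural markers. Without CON 73 the permutation test gave -0.61 (exact permutation p = 0.0536), and the edgeR difference was -0.75 (unadjusted p = 0.00724).

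In the liver HSPA1A overlapped widely between the diets. Its level was 2777 ± 1257 normalised CPM in CON and 2085 ± 1574 in RES (mean ± SD, n = 7 each). In CON the lowest value was 1047 in CON 23, the median 2669 and the highest 4953 in CON 54. In RES the lowest was 287 in RES 1, followed by 483 in RES 25, the median was 1485 and the highest 4411 in RES 55. Only CON 54 was above all RES fetuses, and only RES 1 and RES 25 were below all CON fetuses. The log2 difference was -0.54 ± 0.52 (SE; 95% interval -1.56 to 0.47, edgeR adjusted p = 0.479). When each fetus was left out in turn it lay between -0.85 (without RES 33) and -0.32 (without RES 1). The exact permutation test gave -0.80 and p = 0.233, with differences between -1.07 (without RES 55) and -0.41 (without RES 1). The liver library of RES 55 had the highest neural marker sum of that tissue, 36.7 normalised CPM against 9.58 in the next, and the highest cartilage marker sum, 12.5 against 5.16. Without the 4 libraries with a low TMM factor the edgeR difference was -0.39 (adjusted p = 0.814). An unadjusted p under 0.05 was found for 24.1% of the 13,527 genes tested in liver, and 0 genes (0.0%) passed the adjustment with edgeR and 86 with DESeq2. The diet difference of HSPA1A did not differ detectably between liver and muscle (interaction 0.43 ± 0.62 on the log2 scale, 95% interval -0.79 to 1.65, edgeR adjusted p = 0.894). It was 0.10 with the animal as a block, and between 0.21 (without RES 55) and 0.58 (without RES 25) when each fetus was left out.

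**Figure D3:**
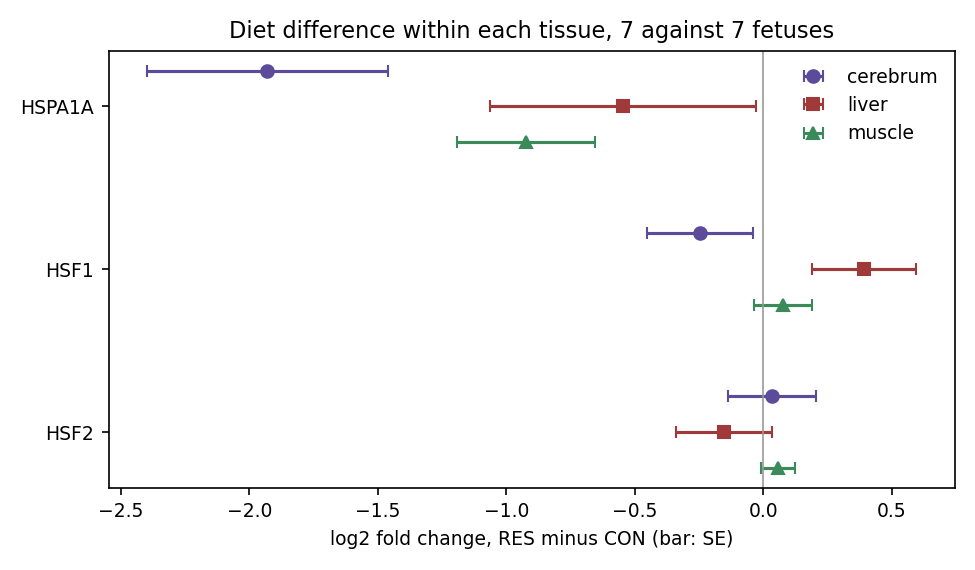
Diet difference of each gene within each tissue as log2 fold change, RES minus CON, with SE bars, from 7 against 7 fetuses. HSPA1A lies at -1.93 in the cerebrum, where it was chosen for its low values, at -0.92 in muscle and at -0.54 in liver, and HSF1 and HSF2 lie between -0.25 and 0.39.

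HSF1, the main activator of HSPA1A, had no diet difference past the adjustment in any tissue. In the cerebrum, HSF1 ranged from 22.8 in CON 23 to 48.1 in CON 69 with a median of 33.1 normalised CPM in CON, and from 20.5 in RES 6 to 42.3 in RES 55 with a median of 31.1 in RES. The groups overlapped, and the log2 difference was -0.25 ± 0.21 (95% interval -0.65 to 0.16, edgeR adjusted p = 0.999, exact permutation p = 0.339). It was -0.30 without CON 23, -0.26 without RES 1, and between -0.36 (without CON 68) and -0.15 (without RES 6) when each fetus was left out. Here an unadjusted p under 0.05 was found for 2.55% of the 15,151 genes tested, and 0 genes (0.0%) passed the adjustment with edgeR and 0 with DESeq2, where 334 had an unadjusted p under 0.05.

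In muscle, HSF1 ranged from 35.4 to 53.9 normalised CPM in CON with a median of 41.9, and from 36.2 to 56.0 in RES with a median of 42.1. The diets differed by a log2 value of 0.08 ± 0.11 (95% interval -0.15 to 0.30, edgeR adjusted p = 0.817, exact permutation p = 0.612). These groups covered almost the same range, and without CON 73 the difference was 0.06. It lay between 0.02 and 0.14 when each fetus was left out.

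In the liver, HSF1 ranged from 58.6 in CON 73 to 130 in CON 2 with a median of 70.8 normalised CPM in CON, and from 60.1 in RES 70 to 148 in RES 6 with a median of 98.5 in RES. The log2 difference was 0.39 ± 0.20 (95% interval -0.00136 to 0.79, edgeR unadjusted p = 0.0689, adjusted p = 0.228, exact permutation p = 0.142). RES held 3 of the 4 libraries with a low TMM factor. When each fetus was left out the difference lay between 0.30 (without RES 6) and 0.51 (without CON 2, edgeR unadjusted p = 0.0134). Without the 4 libraries it was 0.21 (edgeR adjusted p = 0.678), and with library totals as scaling it was 0.02 (edgeR adjusted p = 0.953). On library totals HSF1 lay between 26.5 and 63.9 CPM in the 4 libraries and between 45.97 and 62.15 CPM in the other 10.

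HSF2 was close between the diets in each tissue. In the cerebrum it ranged from 98.2 in CON 69 to 167 in CON 2 with a median of 119.6 normalised CPM in CON, and from 112 in RES 52 to 169 in RES 6 with a median of 122.5 in RES. A log2 difference of 0.03 ± 0.17 was found (95% interval -0.30 to 0.37, edgeR adjusted p = 0.999, exact permutation p = 0.834), and it lay between -0.04 and 0.11 when each fetus was left out. In muscle it ranged from 80.4 to 103 in CON and from 87.7 to 111 in RES, with a log2 difference of 0.06 ± 0.07 (95% interval -0.08 to 0.19, edgeR adjusted p = 0.768, exact permutation p = 0.475). In the liver it ranged from 19.3 to 27.4 in CON and from 10.4 in RES 1 to 25.3 in RES 55, with a log2 difference of -0.15 ± 0.19 (95% interval -0.52 to 0.21, edgeR adjusted p = 0.583, exact permutation p = 0.467). When each fetus was left out, the differences of HSF2 lay between 0.02 and 0.11 in muscle and between -0.27 and -0.04 in liver. Without the 4 libraries with a low TMM factor the liver difference of HSF2 had the other sign, 0.11 (edgeR adjusted p = 0.805). The liver values of HSF2 rest on 25 to 170 counts.

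No interaction of diet and tissue passed the adjustment for HSF1 or HSF2 in edgeR, where 0.0% of 15,972 genes did in each of the 3 comparisons. The largest for these genes was that of HSF1 between liver and cerebrum, 0.54 ± 0.27 on the log2 scale (unadjusted p = 0.0545, edgeR adjusted p = 0.598). It lay between 0.35 without RES 6 (edgeR unadjusted p = 0.198) and 0.75 without CON 2 (edgeR unadjusted p = 0.00737), so that a single fetus moved it past the unadjusted threshold. An unadjusted p under 0.05 was found for 8.26% of genes in that comparison.

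The 3 tissues of each fetus allowed a second question, whether a fetus with a high level in one tissue also had it in another. For HSPA1A this was so between cerebrum and muscle. Over 14 fetuses Pearson's r of the log2 CPM was 0.926 and Spearman's rho was 0.916. The diet difference that led to the choice of HSPA1A is part of these values, so they are given with no test, as are the other values with HSPA1A in the cerebrum that are not centred. With values centred within diet r was 0.886 (permutation p adjusted over 18 relations = 0.0009), and it was 0.964 in CON and 0.508 in RES (n = 7 each). Without CON 73 and CON 54, the fetuses farthest from the median in the cerebrum, r was 0.872, and without RES 1 and CON 23 it was 0.929.

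The order of the fetuses was shared in part between the tissues, with the same 2 fetuses at the top in cerebrum and muscle. CON 73 and CON 54 ranked 1 and 2 in the cerebrum and in muscle, and 3 and 1 in the liver. CON 23 ranked 13, 12 and 14 of 14 in cerebrum, liver and muscle, and RES 25 ranked 12, 13 and 12. RES 1 ranked 10, 14 and 13 in the same order, and RES 6, level with CON 23 in the cerebrum, ranked 14, 11 and 11. RES 55, RES 33 and RES 52 were within rank 5 in the liver but at rank 7 or lower in the cerebrum and muscle.

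Between liver and muscle, HSPA1A had an r of 0.713 (permutation p = 0.00419, adjusted 0.0189; rho 0.688, permutation p = 0.00821), with 0.969 in CON and 0.857 in RES. The p-values that are not centred are not independent of the choice of HSPA1A, since its muscle values follow those of the cerebrum. Without RES 1 and RES 25, the fetuses farthest from the median, r was 0.665 (adjusted permutation p = 0.101), and without RES 1 and CON 23 it was 0.608 (adjusted permutation p = 0.0921), neither of which passes the adjustment. Centred within diet, r was 0.672 over the 14 fetuses (adjusted permutation p = 0.0405) and 0.761 without RES 1 and RES 25 (adjusted permutation p = 0.0239). Without the 4 liver libraries with a low TMM factor, r that is not centred was 0.688 over 10 fetuses. Between cerebrum and liver r was 0.590 and rho 0.653, with 0.909 in CON and 0.391 in RES, 0.477 without the fetuses farthest from the median and 0.669 without the 4 liver libraries. Centred within diet it was 0.510 (adjusted permutation p = 0.0942). Over all 15,972 genes the median r was 0.139 between liver and muscle, 0.0979 between cerebrum and liver and 0.0819 between cerebrum and muscle. An r above that of HSPA1A was found for 2.49%, 3.03% and 0.213% of genes, in that order. These values are not centred, so the shares hold the diet difference that led to the choice of HSPA1A.

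**Figure D4:**
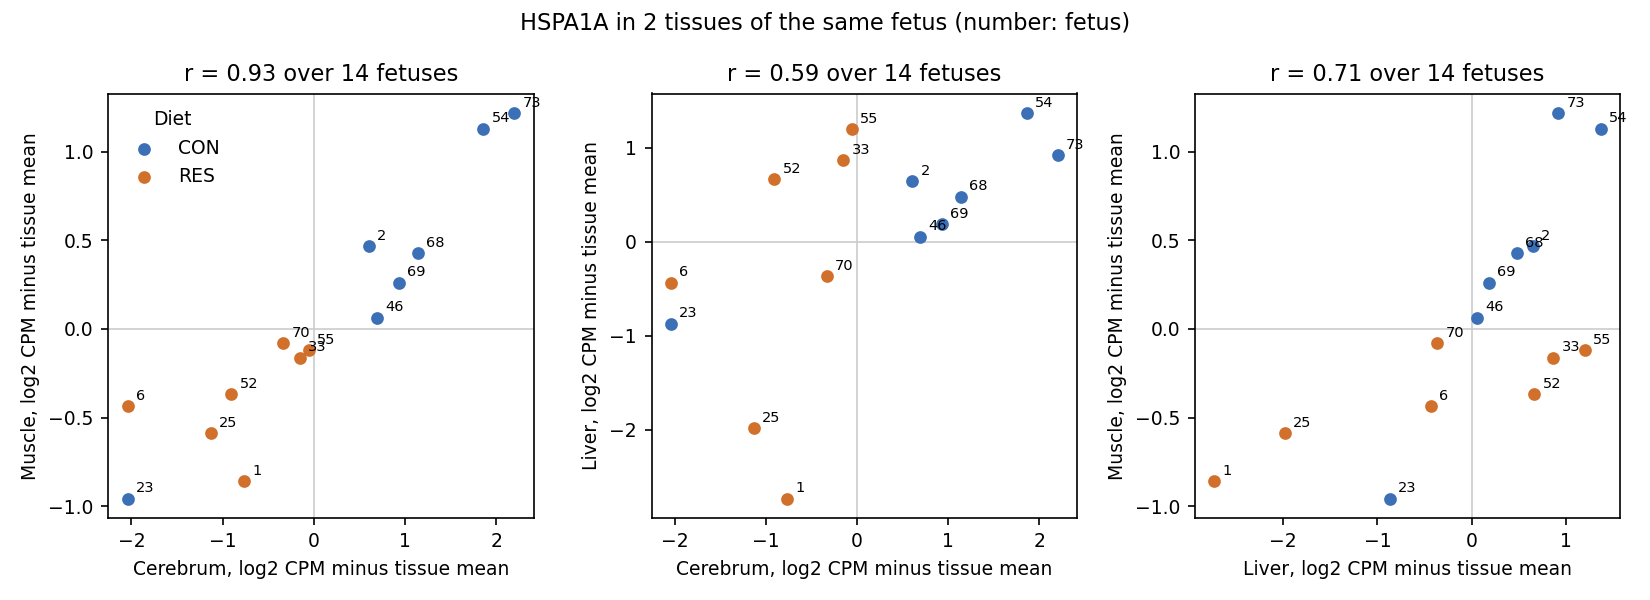
HSPA1A in pairs of tissues of the same fetus, as log2 CPM minus the mean of the tissue, with a point and number for each of 14 fetuses coloured by diet. The points follow a line most closely for cerebrum and muscle (r = 0.926), with CON 73 and CON 54 at the upper end and CON 23 and RES 6 at the lower end in the cerebrum.

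HSF1 and HSF2 did not show such a relation past the adjustment between any pair of tissues. For HSF1, r was -0.584 between cerebrum and liver (permutation p = 0.0288, adjusted 0.0738; rho -0.613, permutation p = 0.0222), and -0.024 with library totals as scaling. For HSF1 between liver and muscle, r was 0.540 (permutation p = 0.0484, adjusted 0.0792), but -0.334 with library totals and -0.343 without the 4 liver libraries with a low TMM factor. For HSF2 between cerebrum and muscle, r was 0.546 (permutation p = 0.0438, adjusted 0.0788; rho 0.591, permutation p = 0.0281).

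Within the cerebrum, HSPA1A and HSF1 varied together over the fetuses. Pearson's r was 0.787 and Spearman's rho was 0.754, and these hold the diet difference that led to the choice of HSPA1A. Centred within diet, r was 0.832 (permutation p adjusted over 18 relations = 0.00072). It was 0.804 in CON and 0.957 in RES (n = 7 each), and 0.838 with library totals as scaling. The limit given above for p-values of centred values holds here too. The fetuses with the lowest HSPA1A, CON 23 and RES 6, also had the 2 lowest values of HSF1, 22.8 and 20.5 normalised CPM. Without CON 73 and CON 54, the fetuses farthest from the median, r that is not centred was 0.685. Centred within diet without these fetuses it was 0.772 (adjusted permutation p = 0.0239), and without RES 1 and CON 23 the value that is not centred was 0.742. The same pair of genes had an r of -0.394 in the liver (permutation p = 0.164, adjusted 0.227), which had the other sign with library totals as scaling, 0.592, and -0.105 in muscle (permutation p = 0.723, adjusted 0.868), and whether r differed between tissues was not tested. Among 4616 genes with a symbol, HSF1 ranked 3 by r with HSPA1A in the cerebrum, not centred. ZNF703 with 0.808 and MYADM with 0.804 were nearer. Over 7 other classical HSF1-induced genes, counted below, the median r with HSF1 in the cerebrum was -0.154, and 3 were above 0. These values ran from -0.319 (DNAJA1) to 0.299 (CRYAB). What links HSPA1A and HSF1 was not tested.

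HSF1 and HSF2 were inversely related in the cerebrum on the normalised scale, with an r of -0.798 (permutation p = 0.00073, adjusted 0.00594; rho -0.780, permutation p = 0.0015). With library totals as scaling r was 0.122 (permutation p = 0.68), so that this relation depends on the scaling. Without RES 1 and CON 23 r was -0.809 (adjusted permutation p = 0.0132). Without RES 6 and CON 69, the fetuses farthest from the median, r was -0.652 and its adjusted permutation p 0.101, so that the call does not hold without them. Beside the relations with HSPA1A in the cerebrum, that of HSPA1A between liver and muscle and this one, none of the other 12 passed the adjustment with Pearson's r over all 14 fetuses on the normalised scale. HSPA1A and HSF2 in the cerebrum had an r of -0.531, which was -0.585 centred within diet (adjusted permutation p = 0.0846) and 0.101 with library totals. HSPA1A and HSF2 in muscle, with -0.595 (adjusted permutation p = 0.0738), passed it without RES 1 and CON 23, with -0.743 (adjusted permutation p = 0.0272). HSPA1A and HSF2 in the liver, with 0.575 (adjusted permutation p = 0.0766), passed it with library totals, with 0.806 (adjusted permutation p = 0.0243), and had an r of 0.0364 without the 4 liver libraries with a low TMM factor.

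The genes nearest to each member in pattern are named from the 5091 genes with a symbol past the filter, by Pearson's r of the log2 CPM minus the mean of each tissue over the 42 libraries. These are descriptions, since the libraries share fetuses and scaling, and those for HSPA1A hold the diet difference that led to its choice. For HSPA1A they were SNORD14, a small nucleolar RNA, with 0.710, SRRD with 0.651, USP30, a mitochondrial deubiquitinase, with 0.646, CBARP with 0.628 and INTS6, a subunit of the Integrator complex, with 0.621. SNORD14 followed HSPA1A in each tissue, with 0.701 over the cerebrum libraries, 0.840 over those of liver and 0.566 over those of muscle. For HSF1 the nearest were CSNK1G2, a casein kinase, with 0.902, BOP1, which acts in ribosome biogenesis, with 0.892, TPRN with 0.891, NAPA, a protein of vesicle fusion, with 0.886 and MAP2K2, a kinase of the MAPK cascade, with 0.886. For HSF2 they were KRIT1 with 0.830, RMI1 with 0.822, GABPB1 with 0.822, BBS5 with 0.817 and ORC4, a subunit of the origin recognition complex, with 0.805. Within the liver, r lay between 0.916 and 0.957 for the genes near HSF1 and between 0.886 and 0.916 for those near HSF2. Within muscle, it lay between 0.634 and 0.818 for the first and between 0.173 and 0.450 for the second.

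The other genes of the response were taken from lists of chaperones, heat shock factors and stress genes. Many of their members have no symbol among the study's names, so that 6 of 16 HSP70 genes, 4 of 15 of the HSP90 family and its co-chaperones, 12 of 18 HSP40 genes, 4 of 8 small heat shock proteins, 3 of 10 chaperonins, 6 of 8 exchange factors and BAG proteins and 8 of 24 classical HSF1-induced genes were measured by name. HSPA1A is among the HSP70 genes and the classical HSF1-induced genes, and it was left out of the counts that follow.

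In the cerebrum, where HSPA1A was lower in RES, 1 of the 46 list genes tested had an unadjusted p under 0.05 (2.17%, with a higher level in RES, as had 2.18% of all genes), and none passed the adjustment in edgeR. The library of RES 1 carried most of this background, since without it 0.718% of all genes had an unadjusted p under 0.05 and 0.352% with a higher level in RES. Their median log2 difference was -0.07 against -0.03 for all genes. The 7 classical HSF1-induced genes beside HSPA1A had a median of -0.26. Among them HSPA8, the constitutive HSC70, was at 1841 ± 474 normalised CPM in CON and 1341 ± 293 in RES (mean ± SD, n = 7 each), a log2 difference of -0.43 ± 0.25 (edgeR unadjusted p = 0.102, adjusted p = 0.999). HSPA1L, the neighbour and close relative of HSPA1A, was low, at 1.57 ± 0.86 in CON and 1.33 ± 0.36 in RES, with a log2 difference of -0.26 ± 0.38 (edgeR adjusted p = 0.999). CRYAB, a small heat shock protein, was at 1.88 ± 0.99 (edgeR unadjusted p = 0.0753), but its highest value, 42.4 normalised CPM, was that of RES 1. The other 6 RES fetuses lay between 0.337 and 1.29 and CON between 0 and 5.47, and without RES 1 the difference had the other sign, -0.86 ± 0.62 (edgeR unadjusted p = 0.186). HSPA12B, a distant HSP70 relative of endothelial cells, was the gene with an unadjusted p under 0.05, at 0.99 ± 0.43 (edgeR unadjusted p = 0.0337, adjusted p = 0.999), and without RES 1 its difference was 0.30 (edgeR unadjusted p = 0.312). RES 1 had the highest endothelial marker sum in the cerebrum, 81.3 normalised CPM against 35.5 in the next library.

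In muscle, none of the 47 list genes beside HSPA1A had an unadjusted p under 0.05, against 9.91% of all genes. Their median log2 difference was 0.04, with 29 estimates above 0 and 18 below. The estimates of all 5 HSP70 relatives were below 0, while 48.1% of all genes had an estimate above 0. Among them HSPA8 was at 1172 ± 173 normalised CPM in CON and 1101 ± 235 in RES (mean ± SD, n = 7 each), a log2 difference of -0.10 ± 0.14 (edgeR adjusted p = 0.799). HSPA12A, a distant HSP70 relative, was at -1.26 ± 0.89 (edgeR adjusted p = 0.63), with 88.2 normalised CPM in CON 73, and without CON 73 its difference was 0.65 ± 0.49 (edgeR unadjusted p = 0.209). BAG3, a co-chaperone that is a classical target of HSF1, was at 0.05 ± 0.11 (edgeR adjusted p = 0.888).

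In the liver, 8 of 46 list genes had an unadjusted p under 0.05 (17.4%, against 24.1% of all genes), 3 with higher and 5 with lower values in RES, where 13.5% of all genes were higher and 10.6% lower, and none passed the adjustment in edgeR. The lower ones were DNAJA1, an HSP40 partner of HSP70, with a log2 difference of -1.32 ± 0.34 (edgeR unadjusted p = 0.00135, adjusted p = 0.184), CCT2, a subunit of the cytosolic chaperonin, with -0.60 ± 0.18 (edgeR unadjusted p = 0.00509, adjusted p = 0.184), HSP90AA1, the inducible HSP90, with -0.86 ± 0.29 (edgeR unadjusted p = 0.00945, adjusted p = 0.184), HSPA8 with -0.58 ± 0.23 (edgeR unadjusted p = 0.02, adjusted p = 0.184) and PDIA4, a disulfide isomerase of the endoplasmic reticulum, with -0.54 ± 0.24 (edgeR unadjusted p = 0.0409, adjusted p = 0.197). DNAJA1 was at 44.2 ± 13.5 normalised CPM in CON and 23.6 ± 17.3 in RES (mean ± SD, n = 7 each), and its DESeq2 adjusted p was 0.0281. The higher ones were HSF4, a heat shock factor known from the lens, with 0.78 ± 0.32, the co-chaperone DNAJC7 with 0.52 ± 0.21 and SIL1, an exchange factor for the HSP70 of the endoplasmic reticulum, with 0.62 ± 0.27. Without the 4 libraries with a low TMM factor, DNAJA1 was at -0.77 (edgeR unadjusted p = 0.00968), PDIA4 at -0.78 (edgeR unadjusted p = 0.0101), CCT2 at -0.28, HSP90AA1 at -0.46, HSPA8 at -0.22, HSF4 at 0.66, DNAJC7 at 0.12 and SIL1 at -0.02. In that fit 2 of the 46 list genes had an unadjusted p under 0.05 (4.35%, against 6.86% of all genes), DNAJA1 and PDIA4. With library totals as scaling, the higher genes were at 0.47 for HSF4, 0.07 for DNAJC7 and 0.09 for SIL1, and HSPA8 was at -0.84 (edgeR unadjusted p = 0.0567). Of the 46 list genes, 0 were then higher and 4 lower at an unadjusted p under 0.05. On that scale the median of all genes was itself at -0.37, and 0.998% of all genes were higher and 11.4% lower.

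**Figure D5:**
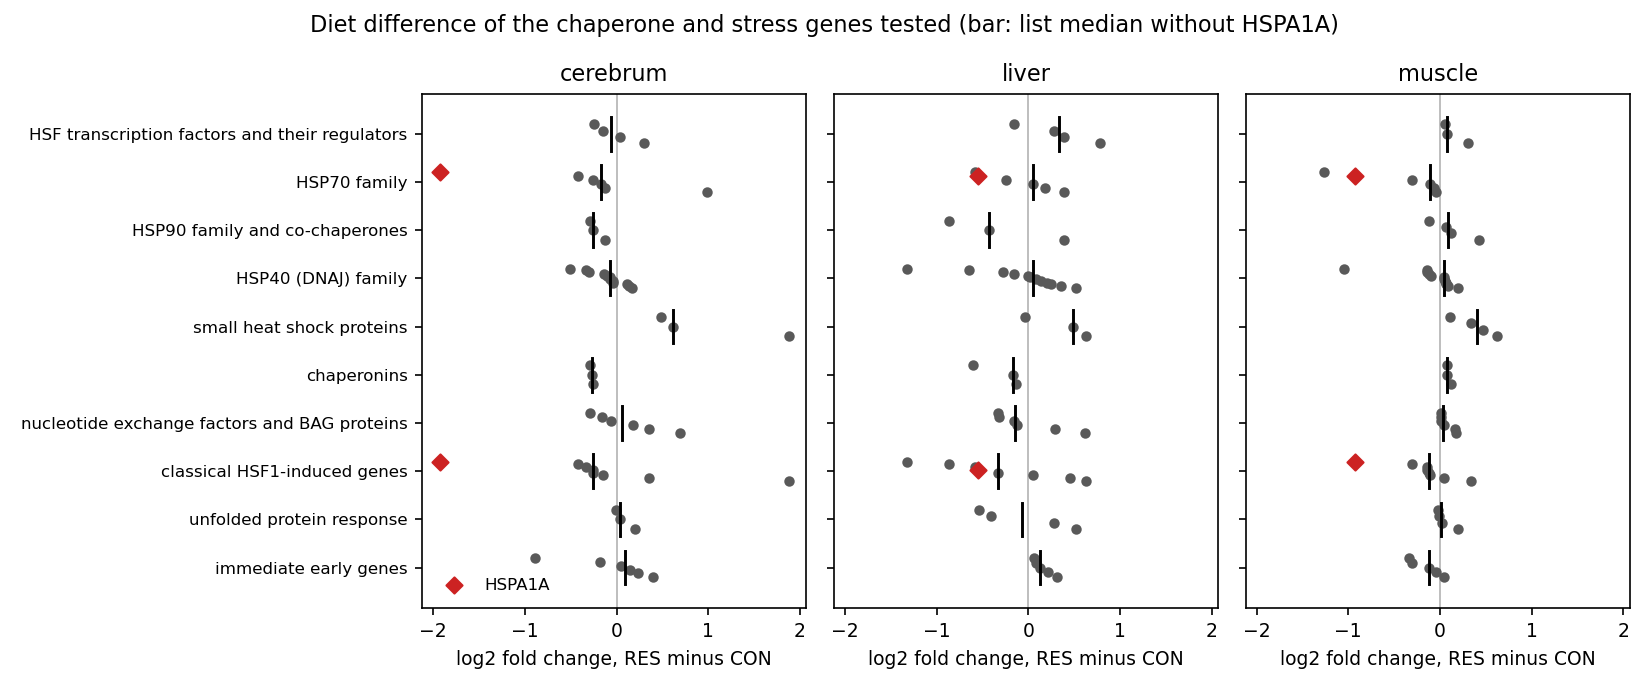
Diet difference (log2 fold change, RES minus CON) of the chaperone and stress genes tested in each tissue, with a point for each gene, grouped by list, and a bar at the list median without HSPA1A. HSPA1A lies at -1.93 in the cerebrum and -0.92 in muscle, the list medians lie between -0.43 (HSP90 family in liver) and 0.62 (small heat shock proteins in the cerebrum, -0.33 without RES 1), and the liver points of DNAJA1 (-1.32) and HSP90AA1 (-0.86) are low.

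Over the fetuses, the median r of all list genes with HSPA1A was close to 0 in each tissue, at 0.0225 in the cerebrum, 0.0201 in liver and -0.0455 in muscle. Single genes went both ways, from -0.497 (DNAJC2) to 0.765 (TRAP1) in the cerebrum. In liver they lay between -0.586 (HSF2BP) and 0.673 (HSPA8), and in muscle between -0.543 (DNAJC2) and 0.607 (DNAJA1). In the cerebrum, r with HSPA1A had a median of 0.00431 over the 7 other classical HSF1-induced genes, with HSPA8 at 0.00431 and HSPA1L at -0.298. In the liver the median was 0.391, with HSPA8 at 0.673, HSP90AA1 at 0.570, CRYAB at -0.194 and HSPA1L at -0.263. Without the 4 liver libraries with a low TMM factor this median was 0.0937, with HSPA8 at 0.633 and HSP90AA1 at 0.697. In muscle the median was 0.397, with DNAJA1 at 0.607, HSP90AA1 at 0.469 and CRYAB at -0.290. These values of r over 14 fetuses are descriptions, and no difference between tissues was tested. Of 18 immediate early genes, which respond to a stimulus within a short time, 6 had a symbol, and of 15 genes of the unfolded protein response of the endoplasmic reticulum, 4 had one. Of the immediate early genes tested, 0 of 6 in the cerebrum, 0 of 5 in the liver and 0 of 5 in muscle had an unadjusted p under 0.05 for diet. Of the unfolded protein response, 0 of 3 in the cerebrum, 1 of 4 in the liver (PDIA4) and 0 of 4 in muscle did. The shares over all genes were 2.55%, 24.1% and 9.91%.

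Of the 6 measured HSP70 genes, HSPA1A included, 4 were higher and 1 lower in liver than in the cerebrum at an adjusted p under 0.05, where 38.5% of all genes were higher and 45.2% lower. With library totals it was 3 and 2, where 19.9% and 65.8% of all genes were. The lower one on the normalised scale was HSPA12A, with -3.25 ± 0.54 (edgeR adjusted p = 6.08e-07). HSPA1L had a higher level in liver than in the cerebrum (log2 difference 2.45 ± 0.21, edgeR adjusted p = 5.66e-14) and than in muscle (2.63 ± 0.21, edgeR adjusted p = 6.94e-15), and it kept this with library totals, at 1.37 and 1.5. HSF4 also had its highest level in liver, with 4.61 ± 0.35 over the cerebrum and 4.62 ± 0.35 over muscle, and 3.46 and 3.48 with library totals. HSPA8 changed sign with the scaling in both comparisons with liver, from 0.14 ± 0.16 (edgeR adjusted p = 0.41) to -0.81 with library totals against the cerebrum and from 0.61 ± 0.16 (edgeR adjusted p = 0.00053) to -0.35 against muscle. Between muscle and cerebrum it was at -0.47 ± 0.16 (edgeR adjusted p = 0.00752), and at -0.47 with library totals (edgeR adjusted p = 0.0598). The small heat shock proteins had their highest level in muscle. All 4 measured, CRYAB, HSPB2, HSPB3 and HSPB8, were higher in muscle than in the cerebrum, with a median log2 difference of 3.86, where 32.2% of all genes were higher. All 4 were lower in liver than in muscle, with a median of -2.29, where 45.5% of all genes were lower. With library totals as scaling this held for all 4, while 69.1% of all genes were then lower in liver than in muscle. DNAJA1 had the order of HSF2, with liver below the cerebrum by -2.07 ± 0.20 (edgeR adjusted p = 1.46e-12) and below muscle by -1.14 ± 0.20 (edgeR adjusted p = 1.51e-06), also with library totals, at -2.99 and -2.05.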

How the data were processed

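RNA-Seq read counts were used from 3 tissues of 14 fetuses. The authors prepared strand-specific libraries, sequenced them as 50-bp read pairs, mapped the reads with STAR 2.7.3a to ARS-UCD 1.2 with the Ensembl annotation and deposited raw counts per gene, without normalization. A gene was tested unless 80% or more of the libraries in the fit had a CPM under 1. Differences were tested with edgeR 4.0.16 (quasi-likelihood test, TMM, R 4.3.3), with Benjamini-Hochberg adjustment over all genes kept. Diet was fitted within each tissue with fetal sex as a covariate, and tissue and interaction over all 42 libraries with sex and diet. Log2 CPM used a prior count of 1. Intervals are the estimate ± 1.96 SE. Permutation tests were computed with numpy 2.4.6, with ranks from scipy 1.17.1. DESeq2 1.42.0, its size factors, other filters and scalings, no sex term, an animal block and the omission of each fetus were the alternatives. The fits were tested on simulated data.

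Same-numbered libraries come from the same animal. The correlation of their deviations over 15,972 genes had a median of 0.031 between cerebrum and liver, 0.0584 between cerebrum and muscle and 0.12 between liver and muscle. Symbols came from the study and cover 5,127 genes, and other genes are not analysed here by name. The members, the gene lists and the tests were chosen with earlier results of these data known. Named were the 3 genes in every library, of each list and tissue the member with the highest level and up to 3 with the lowest p, and the 5 genes nearest in pattern. Some items are not reported here. Library totals and the libraries left out for their markers or TMM factors were chosen after seeing the data.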

Additional observations from a re-analysis of the deposited data

Results flagged for a closer look

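In the cerebrum of CON, HSPA1A of CON 23 lay far from the other 6 fetuses, at 3.23 log2 CPM against 5.88 in the nearest and 7.48 in the highest. Its gap to the nearest was 0.624 of the range of the group, above Dixon's critical value at the 95% level for 7 samples. A total of 18 groups of 7 libraries were looked at, of which chance flags about 1 in 20. The same fetus had the lowest HSPA1A in muscle, 29.3 normalised CPM, and the lowest of CON in the liver, 1047 normalised CPM. Its cerebrum library also had the highest sum of neural markers, 8850 normalised CPM, and the part of this in the low value was not tested.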

How the results depend on the processing

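The diet differences of HSPA1A in liver and muscle kept their direction and their side of the adjusted threshold in every edgeR and DESeq2 fit tried. In the exact permutation test of muscle, the p adjusted over 8 tests was 0.214 with all fetuses. It passed the threshold when CON 23 was left out, which by construction removes the overlap of the groups and is no support. DESeq2 gave 86 genes past the adjustment in the liver and 13 in muscle where edgeR gave 0 in both. The interaction of liver and cerebrum gave 1 gene with library totals as scaling, and the interaction counts were 0 to 1 for liver against cerebrum and 0 to 1 for muscle against cerebrum when each fetus was left out (1 without RES 70 and 1 without RES 52). With the animal as a replicate block, the muscle and cerebrum difference of HSPA1A was 0.48 (adjusted p = 0.0695), and the block changed no call. With library totals as scaling, HSF1 was 0.256 between liver and cerebrum and -0.100 between liver and muscle (0.217 without mitochondrial genes), the interaction of HSF2 for muscle against cerebrum was -0.0965 and that of HSF1 for liver against muscle -0.0192. HSF2 in liver was 0.107 without the 4 libraries with a low TMM factor. When each fetus was left out, HSF2 ranged from -0.0352 to 0.11 for diet in the cerebrum (edgeR), from -0.0336 to 0.102 in the permutation test there, and from -0.0568 to 0.0667 in the interaction of muscle against cerebrum, and HSPA1A in muscle ranged from -0.980 to -0.610 in the permutation test. The list median of the HSP90 family in liver was -0.0356 with no filter, and that of the small heat shock proteins in the cerebrum ranged from -0.329 (without RES 1) to 0.798.

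Relations were more sensitive. With library totals in place of TMM scaling, the sign of r turned for 8 of the 18 relations. In the cerebrum r went from -0.531 to 0.101 for HSPA1A and HSF2 and from -0.798 to 0.122 for HSF1 and HSF2. In the liver it went from -0.394 to 0.592 for HSPA1A and HSF1 and from -0.547 to 0.662 for HSF1 and HSF2, while that of HSPA1A and HSF2 went from 0.575 to 0.806. In muscle it went from -0.105 to 0.0133 for HSPA1A and HSF1 and from 0.0611 to -0.422 for HSF1 and HSF2. It went from 0.54 to -0.334 for HSF1 between liver and muscle and from -0.0553 to 0.0947 for HSF2 between cerebrum and liver. Without the fetuses farthest from the median, r was 0.685 for HSPA1A and HSF1 and -0.652 for HSF1 and HSF2 in the cerebrum, 0.108 for HSPA1A and HSF1 and -0.0219 for HSF1 and HSF2 in muscle, 0.665 for HSPA1A between liver and muscle, 0.17 for HSF2 between cerebrum and liver and -0.135 for HSF2 between liver and muscle (0.0118 over all fetuses). With centring within diet as well, r was -0.66 for HSF1 and HSF2 in the cerebrum, 0.171 for HSPA1A and HSF1 in muscle, 0.207 for HSF2 between cerebrum and liver and -0.186 for HSF2 between liver and muscle. Without RES 1 and CON 23, r was -0.743 for HSPA1A and HSF2 in muscle, 0.608 for HSPA1A and -0.253 for HSF2 between liver and muscle. With variance stabilized values, r of HSF2 between cerebrum and liver was 0.0115. The causes were not tested. Among the 3 genes, HSF2 in liver rests on the fewest counts, 25 in RES 1, and list genes such as CRYAB in the cerebrum reach 0 counts.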
